A study of Saccharomyces cerevisiae with 23 samples.

Results

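Peroxisome assembly and beta-oxidation genes were followed through a synchronised meiosis of budding yeast, Saccharomyces cerevisiae. The set held every gene whose deposited short name is PEX followed by a number, together with 12 named genes of fatty acid oxidation: POX1, FOX2, POT1, FAA1, FAA2, CTA1, PXA1, PXA2, DCI1, ECI1, SPS19 and IDP3. It came to 38 genes, 26 of them PEX genes, among 6867 gene rows. PEX9, PEX34 and PEX35 carry other short names in the files and were left out. All 38 passed the filter on low values, a mean of at least 1, among 6560 genes tested.

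Total RNA was sequenced from 1 strain, strain A 33606, in 23 libraries, 1 for each time. Cells were grown in YPD, then overnight in BYTA, and moved at 0 h into SPO, the sporulation medium. Copper sulphate, given as 25 mM, was added at 2 h to turn on IME1, the master activator of meiotic entry, and IME4, an RNA methyltransferase gene. The libraries were taken at 0 h and 2 h, every 0.25 h from 2.25 to 6 h, and at 6.5, 7, 7.5, 8 and 10 h, so every library from 2.25 h on came from cells that had received copper. The labels do not state whether the 2 h cells were collected before or after the copper, and no library came from a culture without copper at later times. For the comparisons, consecutive libraries stood in for replicates: 4 at 2.25 to 3 h, 6 at 3.25 to 4.5 h, 6 at 4.75 to 6 h and 5 at 6.5 to 10 h. The spread within such a window therefore includes change over time, and the SE given below with a log2 change rests on consecutive times, not on repeated cultures.

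Peroxisomes are organelles bounded by a single membrane, and in yeast they hold the whole of fatty acid beta-oxidation. PEX proteins, the peroxins, insert the membrane proteins, carry folded enzymes in from the cytosol, recycle the import receptors and set the number and size of the organelles. In cells given fatty acids, the factors Oaf1 and Pip2 bind oleate response elements in front of many of these genes, and Adr1 acts there once glucose is gone. Ndt80, the factor that drives cells out of meiotic prophase, binds middle sporulation elements.

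All levels below are FPKM, a read-out of fragments per length of gene and per size of library, divided by a factor for each library unless called deposited. Such levels are relative to the other RNA of the library, so fewer expressing cells and less RNA per cell cannot be told apart. The factors ran from 0.252 at 7.5 h to 1.81 at 4.75 h, and the fragments implied by the deposited values ran from 368883 at 7.5 h to 1467241 at 4.75 h, so the 7.5 h library was the shallowest. IME1 stood at 51.5 at 0 h, 778 at 2 h and 8868 at 2.25 h, and IME4 stood at 7.74, 85.2 and 2932 at the same times. NDT80 was at most 3.68 from 2 h to 3.75 h and reached 460 at 6 h and 664 at 6.5 h. The summed level of 12 genes of haploid or mating cells ran from 299.8 at 0 h to 6177 at 4.5 h and was mostly MFA1. STE2 was at most 4.27 and BAR1 at most 4.36 in every library, MF(ALPHA)1 ran from 0 to 15.4 and STE3 reached 27.8 at 7 h. Others of the list were higher: AGA2 reached 304 at 2.75 h, MFA2 141 at 3.25 h, STE18 94.8 at 7.5 h, STE4 46.7 at 6.5 h, FUS3 29 at 2.5 h and GPA1 21.7 at 10 h. At 6.5 to 10 h against 4.75 to 6 h, where 33.2% of all genes were called, 2 of these 12 genes rose and 1 fell, with STE18 at 3.57 and AGA2 at -3.90 on the log2 scale. The part of mating gene RNA in the results was not tested.

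The stretches of sequence in front of the genes are shown because the values at 0 h and 2 h are given below with the genes split by an upstream motif. The 500 bases before each start codon were searched on both strands for an oleate response element (ORE), written CGGNNNTNA, then 8 to 12 bases of any kind, then CCG. A match lay in 16 of the 38 genes, 42.1%, and in 127 of 6000 windows of all protein-coding genes, 2.12%. Since the element is already known in front of many of these genes, a higher share in the set is no independent result. It was present in 10 of the 12 oxidation genes, all but FAA1 and PXA1, and in 6 PEX genes: PEX5, PEX2, PEX13, PEX6, PEX17 and PEX11. In the stretches below, read 5′ to 3′ on the strand of the gene from the R64 genome, capitals mark the match. The first match of POX1, both of FOX2 and that of IDP3 read on the opposite strand only. POX1 and FOX2 hold 2 separate positions each, and SPS19 lies beside a divergently read neighbour.
POX1, chrVII:107836-107915, + strand: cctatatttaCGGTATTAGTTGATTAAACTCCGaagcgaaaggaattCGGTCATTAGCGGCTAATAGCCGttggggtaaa
FOX2, chrXI:457295-457368, - strand: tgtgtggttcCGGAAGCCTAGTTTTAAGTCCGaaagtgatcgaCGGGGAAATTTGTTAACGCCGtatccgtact
POT1, chrIX:41600-41642, - strand: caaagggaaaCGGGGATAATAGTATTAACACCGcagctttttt
CTA1, chrIV:969856-969899, - strand: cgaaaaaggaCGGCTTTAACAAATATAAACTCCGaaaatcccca
DCI1, chrXV:675276-675319, - strand: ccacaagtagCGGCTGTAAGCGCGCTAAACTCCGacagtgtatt
ECI1, chrXII:707181-707223, - strand: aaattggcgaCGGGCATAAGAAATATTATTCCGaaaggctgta
IDP3, chrXIV:614499-614541, + strand: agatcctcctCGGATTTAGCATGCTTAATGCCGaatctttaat
PEX11, chrXV:48746-48788, - strand: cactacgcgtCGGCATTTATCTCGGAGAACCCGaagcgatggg
SPS19, chrXIV:259402-259445, + strand: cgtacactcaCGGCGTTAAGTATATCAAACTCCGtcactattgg
The middle sporulation element (MSE) was searched as the word CACAAAA, the word CACAAAT, the word CGCAAAA or the word CGCAAAT, also on both strands, and no match in the set overlapped an ORE match. It lay in 12 of the 38 genes, 31.6%, and in 30.6% of all windows. Of the 12 with a match, 6 rose and 4 fell at 6.5 to 7.5 h against 4.75 to 6 h, where 22.7% of all genes rose and 25.2% fell. The 4 were POT1, ECI1, PEX11 and FAA1. Of the 26 without a match, 7 rose and 9 fell. That comparison of times was chosen after the data had been seen. The MSE match is shown in capitals for PEX30 and PEX29, chosen after their values were seen. On PEX29 it reads on the opposite strand.
PEX30, chrXII:779092-779118, + strand: ggatcagcttCACAAAAtatatacttg
PEX29, chrIV:1417024-1417050, - strand: ccagtaatacTTTTGTGgtgaacttaa
PEX32, PEX22 and PEX19, also high in those libraries, held no match to either motif in the window. A match is a run of letters and not a shown binding site.

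The summed levels of both groups of genes changed over the course at different times, though not every gene followed the sum of its group. The summed level of the 12 oxidation genes was 395 at 0 h, 1234 at 2 h and 1668 at 2.25 h, was 505 at 6.5 h and was 1974 at 10 h. The summed level of the 26 PEX genes stayed between 355 and 527 from 0 h to 6 h, was highest at 7.5 h at 2159 and was 1175 at 10 h. The time of that highest value rested on the scaling. On deposited FPKM the PEX sum was 543 at 7.5 h and highest at 8 h at 1225, while the oxidation sum was highest at 10 h at 1893 there too. A few genes carried much of the PEX sum, with PEX19 alone at 714 at 7.5 h. At 6.5 to 7.5 h against 4.75 to 6 h, a comparison chosen after the data had been seen, 10 PEX genes rose and 4 fell. Of all genes, 22.7% rose and 25.2% fell. The median log2 change there was -0.03 over the PEX genes and -0.22 over all genes. In the same comparison the oxidation genes DCI1, POX1 and SPS19 rose and PEX11 fell. In the test of a smooth curve over the 22 libraries from 2 h on, 35 of the 38 genes changed (limma F test of a spline of 4 df; a call needed a curve spanning 1 or more in log2 and p under 0.05 after Benjamini-Hochberg adjustment), against 77.9% of all genes tested. The 3 without a call were PEX15 with a fitted range of 0.97, PEX17 with 1.3 and PEX27 with 1.56. The widest fitted ranges were those of PEX32 at 6.37 (adjusted p = 4.6e-11), IDP3 at 6.07 and PEX22 at 5.03.

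**Figure D1:**
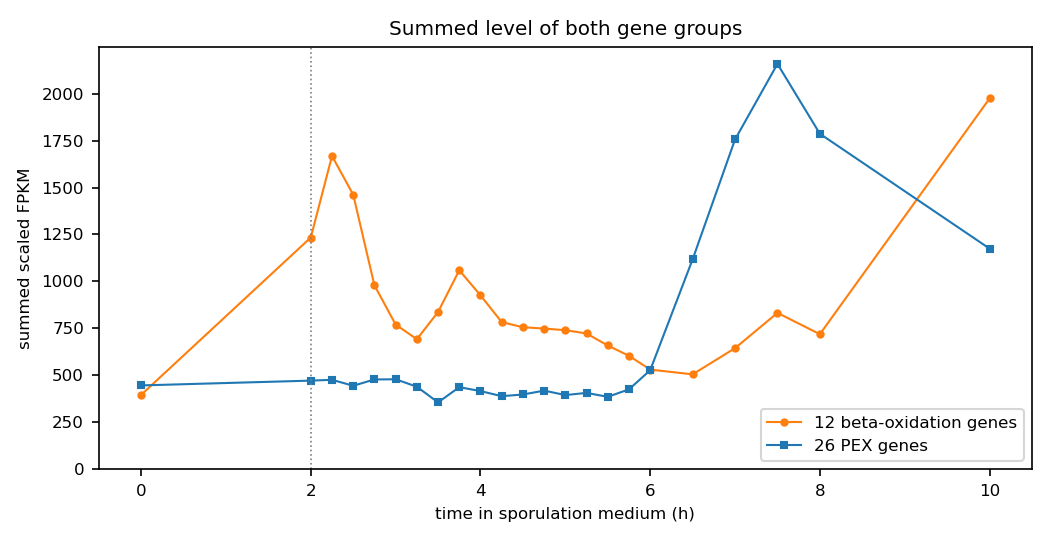
Summed scaled FPKM of the 12 oxidation genes (circles) and the 26 PEX genes (squares) against hours in sporulation medium, 1 library per point, with the dotted line at the addition of copper at 2 h. The oxidation sum was 1668 at 2.25 h and 1974 at 10 h, while the PEX sum was highest at 7.5 h at 2159 after scaling; on deposited FPKM, not plotted, it was highest at 8 h at 1225.

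The first comparison sets the 2 h library against the 0 h library. Time in the medium and any response to copper cannot be told apart in it, since IME1 and IME4 already stood higher at 2 h. Oxidation genes stood higher at 2 h and most PEX genes did not. Of 27 genes at 10 or more in either library, 11 were at least 2-fold higher at 2 h and 0 lower, where 14.6% of all genes so compared were higher and 18.3% lower. Of the 11, 10 were oxidation genes and the last was PEX11, which promotes peroxisome division; the other 14 PEX genes compared stayed under 2-fold. The median log2 ratio was 1.74 over the oxidation genes, -0.21 over the PEX genes compared and -0.09 over all genes. With 1 library on each side there is no replicate check and no test.

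The 3 enzymes of the beta-oxidation spiral were all higher. POX1, the acyl-CoA oxidase that opens each round, went from 34.9 to 123, a ratio of 3.54. FOX2, the enzyme of the middle steps, went from 65.2 to 170, a ratio of 2.61. POT1, the thiolase that closes the round, went from 42.7 to 140, a ratio of 3.28.

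Among the helper enzymes, DCI1, named for a dienoyl-CoA isomerase, had the largest ratio of the set, 7.29, from 5.69 to 41.4. CTA1, the peroxisomal catalase that removes the peroxide made by Pox1, went from 46.9 to 250, a ratio of 5.32. ECI1, an isomerase for unsaturated fatty acids, had a ratio of 3.5, SPS19, a dienoyl-CoA reductase, one of 3.44, and IDP3, which supplies NADPH inside the peroxisome, one of 3.4. In these 5 genes the deposited bounds of the 2 libraries did not touch.

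Of the genes that activate and bring in fatty acids, FAA2, the peroxisomal acyl-CoA synthetase, had a ratio of 3.12, and FAA1, a synthetase outside the peroxisome, one of 2.11. PXA1 and PXA2, the subunits of the fatty acyl-CoA transporter, had ratios of 1.7 and 1.69, short of 2-fold, though their deposited bounds lay apart. PEX11 went from 25.2 to 81.4, a ratio of 3.23. The co-receptor genes PEX18 and PEX21, whose products help Pex7 bring in enzymes such as Pot1, had ratios of 1.87 and 1.95. Of the 27 genes compared, the deposited bounds lay apart with the higher value at 2 h in 15, against 30.9% of all genes so compared. With the bounds divided by the scaling factors it was 14, all of those but PEX18, against 18.2%.

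Split by the upstream motif, 10 of the 13 compared genes with an ORE match were at least 2-fold higher at 2 h, where 14.6% of all genes were. The 13 had a median log2 ratio of 1.71. Apart from PEX11 the 10 were oxidation genes, so this split largely repeats the one into oxidation and PEX genes. The 3 of the 13 with no 2-fold difference were PXA2, PEX5 and PEX17, at ratios of 1.69, 0.85 and 0.7. PEX2, PEX6 and PEX13 hold a match but were under 10 in both libraries and were not compared. Of the 14 compared genes without a match, FAA1 alone was at least 2-fold higher, and the median log2 ratio was -0.11. PXA1, also without a match, had a ratio of 1.7.

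**Figure D2:**
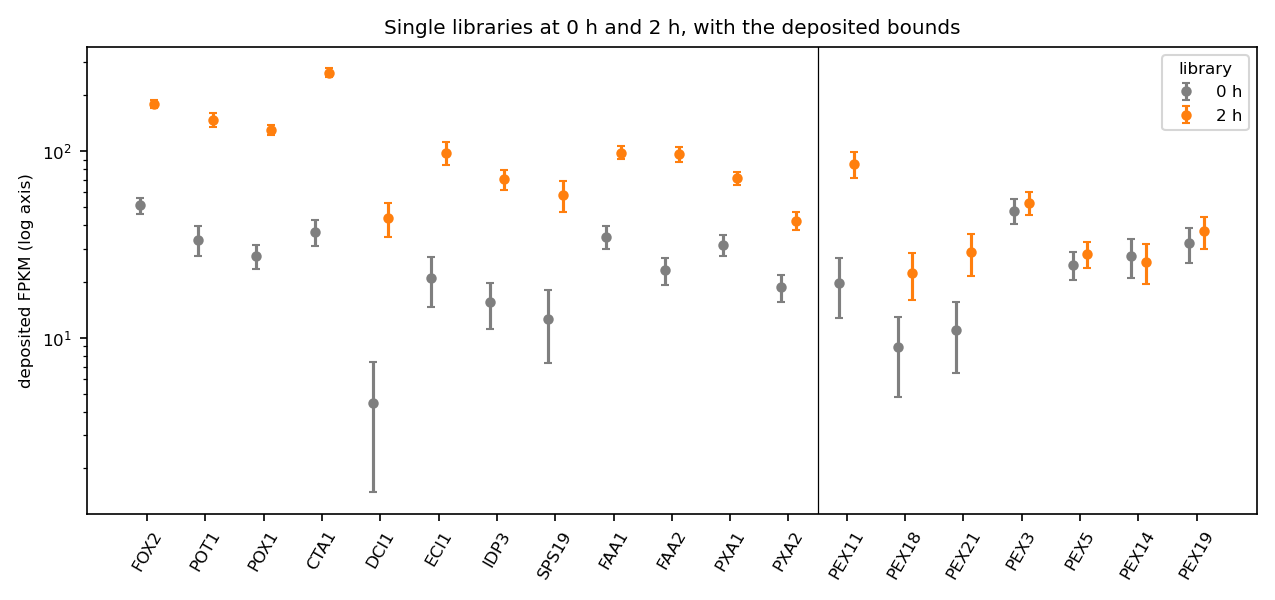
Deposited FPKM (log axis) of the 12 oxidation genes, left of the line, and 7 PEX genes in the single libraries at 0 h (grey) and 2 h (orange), with the bounds the authors deposited as bars. Each oxidation gene was higher at 2 h with bounds apart, CTA1 going from 36.8 to 263 deposited FPKM, while PEX3, PEX5, PEX14 and PEX19 overlapped.

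From the addition of copper to 6 h, no gene of the set passed the test between neighbouring windows. By limma, 0 of 38 were called at 2.25 to 3 h against 2 h, at 3.25 to 4.5 h against 2.25 to 3 h, and at 4.75 to 6 h against 3.25 to 4.5 h, where 1.34%, 0.823% and 1.52% of all genes were called. At an unadjusted p under 0.05 the members numbered 1, 5 and 2. The median log2 changes over the set were -0.21, -0.27 and -0.16, beside -0.05, -0.02 and -0.001 over all genes.

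Levels in those libraries still spread widely within windows. CTA1 was 405 at 2.25 h, 372 at 2.5 h, 130 at 3 h, 215 at 3.75 h and 39.9 at 6 h. FOX2 was 313 at 2.25 h, 340 at 2.5 h, 122 at 3.25 h, 230 at 3.75 h and 92.7 at 6 h. Both had a high point soon after copper and a smaller one at 3.75 h. FAA2 ran from 125 at 2.25 h to 6.11 at 5.75 h, and PEX11 from 52.4 at 2.25 h to 8.32 at 6 h. POT1 differed from these: it was 127 at 2.25 h but held between 30.5 and 39.2 in all 6 libraries of 4.75 to 6 h.

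PEX21 had its highest library at 4.5 h. It was 9.07 at 3 h, 18.9 at 4 h, 39.1 at 4.25 h, 47.8 at 4.5 h, 44.3 at 4.75 h, 12.2 at 5.5 h and 1.91 at 6 h. Its relative PEX18 ran between 11.4 and 18.8 in the libraries of 3.25 to 4.5 h. The smooth curve of PEX21 had a fitted range of 4.63 (limma, adjusted p = 1.3e-08).

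**Figure D3:**
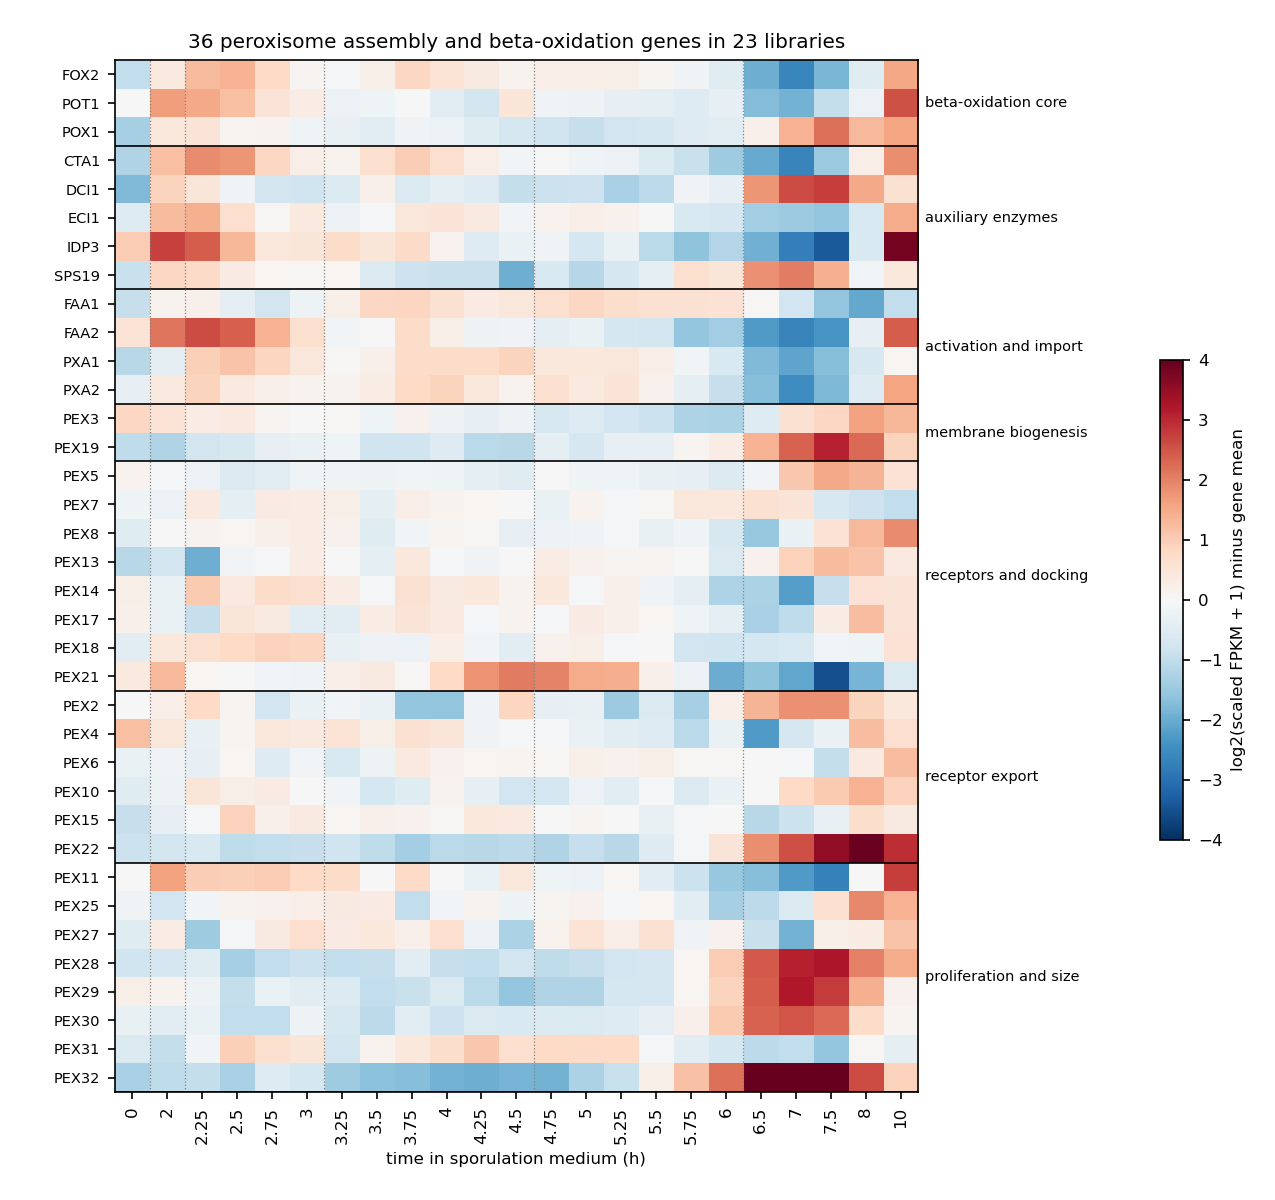
log2(scaled FPKM + 1) of 36 of the 38 genes minus the mean of each gene over the 23 libraries, in columns by hours in sporulation medium and in rows by role; dotted lines mark the windows. Most oxidation genes are above their mean at 2 to 2.5 h and at 10 h and below it at 6.5 to 7.5 h, while PEX22, PEX28, PEX29, PEX30, PEX32, PEX19, DCI1 and SPS19 are above theirs at 6.5 to 7.5 h.

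The last window, 6.5 to 10 h, began with NDT80 at its highest level. Against 4.75 to 6 h, 14 of the 38 genes rose and 3 fell (limma, adjusted p under 0.05 and at least 1 on the log2 scale), while 33.2% of all genes were called, 16% up and 17.3% down. The split rested on the scaling: on the deposited FPKM 6 rose and 13 fell, but there the median of all genes was -0.98, against -0.05 after scaling. PEX22 was 2.34 and PXA1 -2.53 on the deposited values. Without the 10 h library 14 rose and 10 fell, 24 calls in place of 17. The 16% and 17.3% of all genes belong to the scaled values of all libraries and are no background for these other counts. On the deposited FPKM the rises of PEX2, PEX3, PEX10, PEX30, POX1 and SPS19 described next were not called, and PEX5 stood at -0.031; the rises of PEX30 and SPS19 and the fall of PXA1 were also lost with window borders 1 library later, those of PEX5 and PEX10 under upper-quartile scaling, that of PEX10 with a pseudocount of 5 and that of PEX5 without the 7.5 h library.

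The 11 PEX genes that rose are described by role, beside 16% of all genes up and 17.3% down. The roles hold 2 to 8 PEX genes each, and no test compared them. Of the genes for membrane protein insertion, PEX19, the cytosolic chaperone and receptor, stood at 51.6 to 102 in the libraries of 4.75 to 6 h and was 220, 432, 714, 408 and 153 at 6.5, 7, 7.5, 8 and 10 h. No library of the later window lay within the earlier range, and the change was 2.22 ± 0.31 (log2, SE; adjusted p = 1.7e-05). PEX3, its membrane partner, was 13.6 to 23.8 before and 23.4, 52.2, 61, 107 and 86.6 after, a change of 1.64 ± 0.28 in which the 6.5 h library overlapped the earlier range.

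Of the 8 genes for pulling the receptors back out of the membrane, 4 rose and 0 fell. PEX22, which anchors the ubiquitin-conjugating enzyme Pex4 at the membrane, was 16.2 to 54.7 before and 140, 235, 453, 603 and 301 after. The groups did not overlap, and the change, 3.53 ± 0.33, was the largest of the set (adjusted p = 5.5e-07). PEX4 itself was 7.12 to 15.4 before and 2.6, 9.87, 13.4, 39.2 and 26.1 after, with no call at 0.18 ± 0.42. The RING ligase genes PEX2 and PEX10 rose by 1.88 and 1.21, and PEX6, for an ATPase of receptor release, had no call at -0.02 ± 0.28.

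Among receptors and docking proteins, 1 of 8 rose and 1 fell, no larger a share than over all genes. Their median log2 change was -0.03, beside -0.05 over all genes. PEX5, the receptor for most matrix enzymes, was 19.4 to 27.9 before and 26.6, 61.8, 83.7, 74.9 and 42.9 after, a rise of 1.15 ± 0.23. PEX7, the receptor for the other targeting signal, had no call at -0.4 ± 0.28 and was lowest at 10 h at 7.82. PEX21 was 44.3 down to 1.91 before and 2.73, 1.73, 0, 2.13 and 6.63 after, a fall of 2.42 on the log2 scale (SE 0.6, adjusted p = 0.0033); at 7.5 h it was listed at 0.

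Of the 8 genes for number and size of peroxisomes, 4 rose, all from the PEX28 to PEX32 family of membrane proteins. PEX32 was 1.64, 3.06, 4.28, 10.5, 21.3 and 44 from 4.75 to 6 h and then 177, 279, 178, 58.5 and 17.9. Its rise thus began before 6.5 h, and the 10 h library lay within the earlier range. The change between the windows was 3.43 ± 0.66 (adjusted p = 0.00037).

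PEX28 reached 143 at 7.5 h, PEX29 165 at 7 h and PEX30 190 at 7 h, and they rose by 2.84, 2.48 and 1.73. PEX31, from the same family, was low in the later libraries. It was 10.8 at 4.75 h, 3.21 at 6 h and 1.31 at 7.5 h, and its change of -0.98 ± 0.37 had an adjusted p of 0.037 but missed the size threshold. PEX11, PEX25 and PEX27, the PEX11 family, had no call.

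Neighbouring genes moved with some of these values, and the counting is not stated to use strand. DIG2, beside PEX29, was 330 at 7 h, and MTC6, beside PEX28, was 63.3 at 7 h. UBC9, beside PEX19, was 17.2 at 6 h and 91.1 at 7 h. CWC24, beside PEX30, was 5.86 and 38.8 at those times, and SSE2, beside PEX32, was 41 and 62. ACS1, beside PEX22, went the other way, from 1224 at 6 h to 234 at 7 h. SPS18, beside SPS19, was 1117 at 7 h. Other rows overlap SPS19 over 53.8% of its length, PEX14 over 59.2% and PEX2 over 34.6%; YNL203C over SPS19 was 182 at 6.5 h and YJL211C over PEX2 was 62.2 at 6.5 h. YGL152C over PEX14 was listed at 0 in every library. The part of these neighbours in the results was not tested.

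Among the oxidation genes 3 rose and 2 fell. DCI1 was 8.24 to 19.4 before and 76.3, 137, 155, 63.9 and 33.4 after, without overlap, a change of 2.6 ± 0.35 (adjusted p = 1.1e-05). POX1 was 46.9 to 66.8 before and 103, 240, 419, 223 and 270 after, again without overlap, a change of 2.02 ± 0.26 (adjusted p = 6.7e-06). SPS19 rose by 1.4 ± 0.41, with its 8 h and 10 h libraries within the earlier range. FAA1 was 128 to 152 before and 88.2, 49, 27.8, 19.9 and 42.2 after, and it fell by 1.73 on the log2 scale. PXA1 fell by 1.37.

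In 7 of the 38 genes every library of 6.5 to 10 h lay above every library of 4.75 to 6 h, against 6.94% of all genes: PEX22, PEX19, PEX10, POX1, PEX28, PEX2 and DCI1. The highest library of all lay at 6.5 to 8 h for 20 genes, against 34.3% of all genes, and at 10 h for 9, against 13.8%. On deposited FPKM the first count was 4, against 1.75%: PEX22, PEX19, PEX28 and DCI1. The highest library lay at 6.5 to 8 h for 13 genes there, against 16.7%, and at 10 h for 9, against 13.2%.

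**Figure D4:**
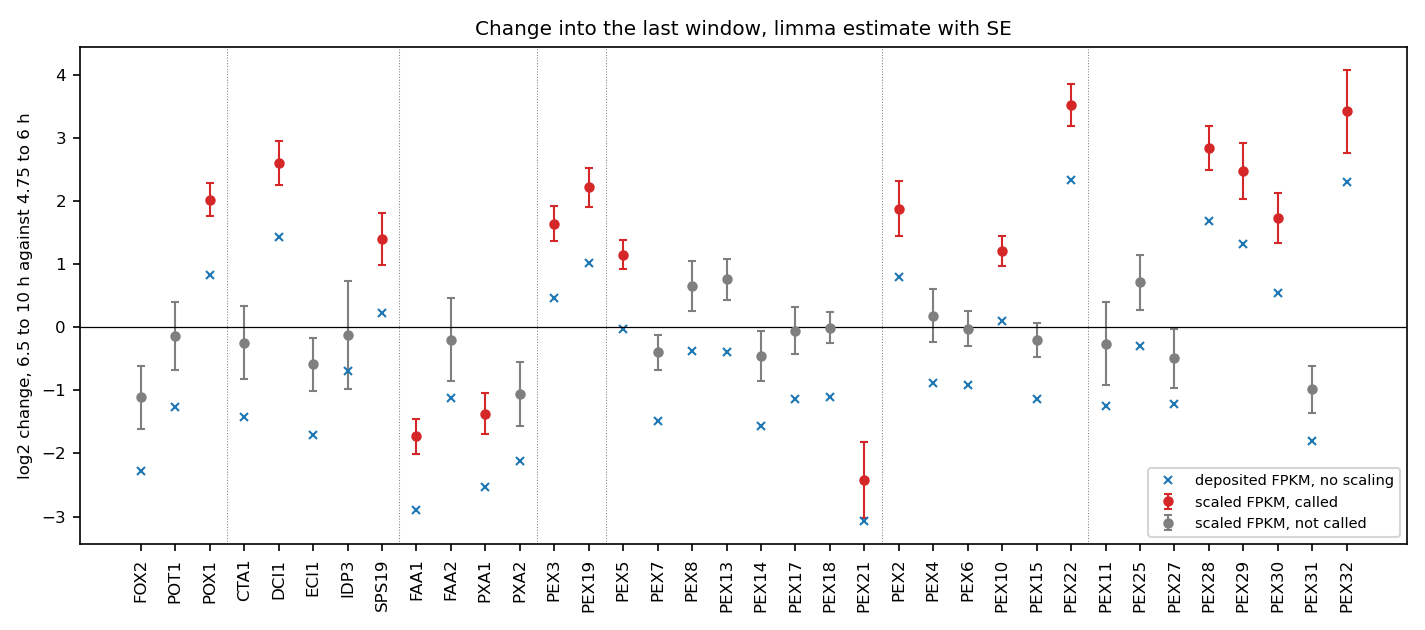
log2 change of 36 of the 38 genes between the libraries of 6.5 to 10 h and those of 4.75 to 6 h, by role, as the limma estimate with its SE; red marks a call on scaled FPKM, grey no call, and blue crosses the estimate on deposited FPKM. The crosses lie below the circles in every gene plotted, and PEX22 at 3.53 and PEX32 at 3.43 are the highest.

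The last window holds a fall and a return, which its mean hides. To show them it was split at 8 h, a step chosen after the data had been seen. The adjusted p-values and calls of the split therefore describe these changes and are no independent test of them. Both comparisons of the split also share the 6.5 to 7.5 h libraries. Low values there give a fall and then a rise, and high values give the reverse. At 6.5 to 7.5 h against 4.75 to 6 h all 12 oxidation genes passed the test, 9 of them lower and 3 higher, and of the 26 PEX genes 10 rose and 4 fell. Over all genes 47.9% passed, 22.7% up and 25.2% down. At 8 and 10 h against 6.5 to 7.5 h, 8 oxidation genes rose and 2 fell, and 11 PEX genes rose and 5 fell, beside 40.9% of all genes called, 20.4% up and 20.5% down.

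FOX2 was 32.7, 20.4 and 35.5 at 6.5, 7 and 7.5 h, below all 6 libraries of 4.75 to 6 h, which held 92.7 to 157. It was 91.5 at 8 h, still below that range, and 382 at 10 h. The changes were -2.18 ± 0.36 (adjusted p = 8e-05) and 2.66 ± 0.47 (adjusted p = 0.00034).

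POT1 was 12.5, 10.9 and 22.2, then 37.2 and 260, with changes of -1.21 ± 0.43 and 2.69 ± 0.55. CTA1 was 26.3, 16.6 and 38.2, then 131 and 397, with changes of -1.49 ± 0.42 and 3.1 ± 0.54. In both, the 10 h library stood far above every other library of the window.

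PEX11 was 7.15, 4.52 and 3.06, then 26 and 181, its highest library, with changes of -1.71 ± 0.44 and 3.63 ± 0.57. It was the 1 PEX gene that was at least 2-fold higher at 2 h, was called lower at 6.5 to 7.5 h and was called higher after. IDP3 was 1.71, 0.542 and 0, then 5.78 and 145, and its second change, 4.29 ± 0.87, was the largest of the set. FAA2 rose by 3.48, PXA2 by 2.52, ECI1 by 1.91 and PXA1 by 1.58.

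DCI1 and ECI1 parted in these libraries. In each of the 6 libraries of 4.75 to 6 h ECI1 was the higher, at 23.8 to 46.1 against 8.24 to 19.4 for DCI1. At 6.5 to 8 h DCI1 was the higher in all 4 libraries, at 63.9 to 155 against 12.2 to 25.1. At 10 h ECI1 stood at 108 and DCI1 at 33.4. This order within a library does not depend on the scaling. POX1 and POT1 were also apart, POX1 at 419 and POT1 at 22.2 in the 7.5 h library, and at 270 and 260 at 10 h.

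Of the 7 genes that fell after 7.5 h, 6 had risen before it. PEX32 fell by 2.63 on the log2 scale, PEX29 by 2.00, PEX30 by 1.97, SPS19 by 1.61, DCI1 by 1.33 and PEX28 by 1.19. The other one, PEX7, fell by 1.07. PEX22 and PEX19 were not called, with 301 and 153 at 10 h. Among the PEX genes that rose after 7.5 h, PEX8 did so by 2.01 and PEX14 by 2.01.

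Of the 16 genes with an ORE match, 5 rose and 8 fell at 6.5 to 7.5 h, and 10 rose and 2 fell after. Of the 22 without a match, 8 rose and 5 fell at 6.5 to 7.5 h, and 9 rose and 5 fell after, beside the 47.9% and 40.9% of all genes called. DCI1, POX1, SPS19, PEX5 and PEX2 were the 5 that rose while holding the match. PIP2, the inducible subunit of the ORE factor, was 21.5 at 0 h, 27.4 at 2 h, 3.64 at 6 h, 3.91 at 7 h and 26.3 at 10 h. OAF1, its partner, ran between 9.55 and 33.4 throughout. ADR1 was 97.3 at 0 h but 35.5 at 2 h, where most oxidation genes stood higher. It was 78.3 at 4.5 h, 13.1 at 7 h and 55 at 10 h, and it rose by 1.65 after 7.5 h.

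**Figure D5:**
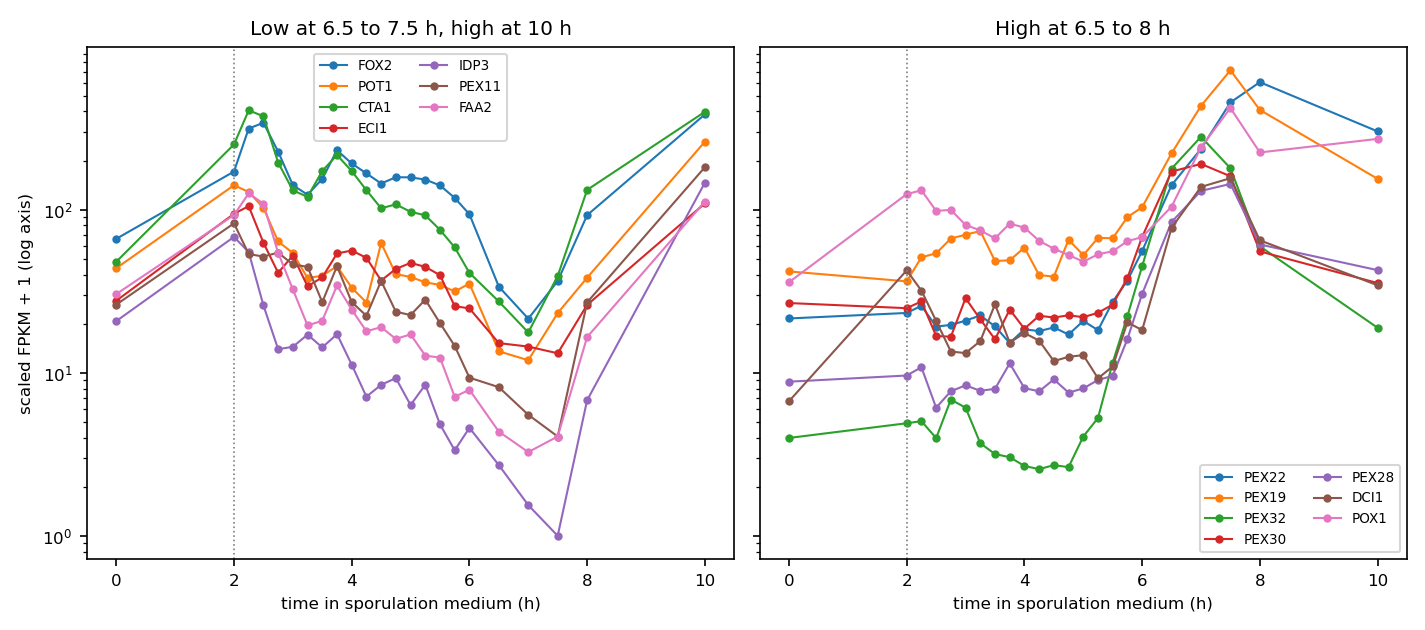
Scaled FPKM + 1 (log axis) against hours in sporulation medium for 7 genes low at 6.5 to 7.5 h and high at 10 h (left) and 7 genes high at 6.5 to 8 h (right), 1 library per point, with the dotted line at copper addition. On the left FOX2 goes from 20.4 at 7 h to 382 at 10 h; on the right PEX32 goes from 1.64 at 4.75 h to 279 at 7 h.

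Genes around these pathways that are not part of the set are given by count, beside the 33.2% of all genes called in the last window. There, against 4.75 to 6 h, the 5 genes listed for the carnitine shuttle of acetyl units all fell, with YAT2 at -2.84, CRC1 at -2.50 and CAT2 at -2.43. Of 8 genes that free or activate stored fatty acids 4 rose and 1 fell, with the triacylglycerol lipase genes TGL5 at 3.47 and TGL3 at 2.27 and the acyl-CoA synthetase gene FAA4 at -1.77. TGL3 was 6.44 at 4.75 h, 248 at 7 h and 28.4 at 10 h, and TGL5 was 6.26, 209.8 and 39.3.

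Of 18 other peroxisomal enzymes and carriers 3 rose and 4 fell, a share near that of all genes and with CAT2 counted here as well; the 4 were led by MLS1 at -3.03, PCD1 at -2.57 and CIT2 at -2.56. Of 10 genes for peroxisome fission, inheritance and breakdown 1 rose and 3 fell, also near it, with FIS1 at 2.38, ATG11 at -1.68 and VPS1 at -1.39. INP1, which holds peroxisomes in the mother cell of a budding pair, was 9.13 at 0 h, 150.8 at 6.5 h and 11.6 at 10 h. Of 8 fatty acid synthesis genes 2 rose and 3 fell, with ELO2 at 2.75 and OLE1 at -2.25. Of 7 regulators 0 were called here by limma, with a median of 0.11.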

How the data were processed

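RNA was sequenced after priming with random hexamers (Ambion Ribopure extraction, NuGEN Ovation library), per the labels. The authors deposited FPKM per gene with a lower and an upper bound, made with Bowtie and Cufflinks 2.2.1 on R64 (sacCer3), per the submitters' processing notes, with Bowtie's version, annotation and strand use not given in the sources used here. The width of the bounds is not stated. Of 7132 rows, 254 with no gene name and 11 with too many fragments were left out. RefSeq R64 held 6022 of the IDs, 99.4% at the same position, and gave the sequences. Implied fragments take each bound as 2 standard errors of a count and are estimates; depth is otherwise unknown.

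The deposited FPKM were divided by the median ratio to the geometric mean library, over 4907 genes of at least 300 bases, since their medians ran from 2.43 to 18.2 between libraries. An earlier account of these files used no scaling and pooled 2 h with later libraries; both were changed here. limma 3.58.1 (R 4.3.3, trend) was run on log2(scaled FPKM + 1) over genes whose mean reached 1, with Benjamini-Hochberg adjustment; folds of low genes are understated by the pseudocount. The 2 h side was 1 library and is assumed to vary like the windows. The spline left a median lag-1 autocorrelation of 0.06 in its residuals. The tests were run on simulated data first. p-values measure the spread between single libraries of 1 culture series, as far as the labels say.

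All 38 genes are in the counts, but 2 of them are not reported here one by one, in the text or the plots. The members and lists were chosen with earlier results of these data known. Values are given for POX1, FOX2, POT1, CTA1 and PEX11, for up to 6 called members each way per comparison, and for those at least 2-fold apart at 2 h; others are given where a role is described. Of other lists, up to 3 called genes are named. PIP2, OAF1, ADR1, INP1 and neighbours of members were added after their values were seen.

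Alternatives covered scaling, pseudocount, filter, spline, window borders and leaving out each library.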

Additional observations from a re-analysis of the deposited data

Results flagged for a closer look

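Within the windows of 4 or more libraries, 152 sets of values of 1 gene were examined, and 11 held a library far from the rest by Dixon's criterion, of which 10 are given here; chance flags about 1 in 20 such sets, and these libraries are consecutive times, so a steady change can look like a lone value. Of the 11, 7 were the 10 h library: FOX2 at 382, POT1 at 260, PEX11 at 181, IDP3 at 145, FAA2 at 111, ECI1 at 108 and PXA2 at 91.9. The next highest of the window was 91.5 for FOX2, 37.2 for POT1 and 5.78 for IDP3. At 6 h PEX30 stood at 67.0 and PEX28 at 29.4, above 37.1 and 15.1 for the next libraries. In the first window PEX7 was low at 2.5 h at 12.6, against 20.1 to 21.6 in the others.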

How the results depend on the processing

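No paired analysis was possible because each time has 1 library and replicate numbers only order the libraries of a window. The count of members called over time was 32 to 36 under the alternatives, against 35. Of those 35, 27 were called under every alternative; PEX25 was lost under 11 of 31. Taken by the larger departure of the curve from its 2 h value, the split into higher and lower was 18 to 17 after scaling, 12 to 20 on deposited FPKM and 15 to 20 with upper-quartile scaling.

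For 6.5 to 10 h against 4.75 to 6 h the count was 15 to 19 of 38 under other scaling, pseudocount, filter and borders, and 16 to 24 when single libraries were left out, with 24 without 10 h. Of the 17, 8 were called under every alternative: PEX22, PEX32, PEX19, PEX29, PEX28, PEX21, DCI1 and FAA1. On deposited FPKM PEX5 turned to -0.031; the alternative has no scaling. Upper-quartile scaling gave 11 up and 5 down. Splitting the window, added after seeing the data, gave 26 and 26 calls.

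With borders 1 library later, 1 member was called at the first step, PEX13, and 1 at the third, PEX32. Leaving out single libraries gave 0 to 1 at the second step, the 1 being FAA2 without 10 h. Calls over all genes at the 3 early steps varied by over 1.5 times. The first, 88, became 311 with later borders, 141 with a pseudocount of 5 and 64 to 260 without single libraries. The second, 54, became 94 with later borders, 10 on deposited FPKM and 0 to 103 without single libraries. The third, 100, became 312 with later borders, 211 on deposited FPKM, 53 with a pseudocount of 5 and 29 to 200 without single libraries. At 2 h against 0 h, 15 members were at least 2-fold higher on deposited FPKM, against 11. The scaling factors were 0.785 at 0 h and 1.05 at 2 h, so leaving out the scaling raised this ratio in every gene. The low depth at 7.5 h limits genes listed at 0 there, such as IDP3 and PEX21. The cause of these differences was not tested.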
